A study of Mus musculus with 360 samples.

Results

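The cells compared here were skeletal stem and progenitor cells of the coronal (COR) and sagittal (SAG) sutures, fibrous joints of the skull vault that remain patent in the mouse. COR was represented by its plates 1 and 2 and SAG by its plate 1 alone. A cell needed reads in 500 or more genes and 10000 or more reads in all, which left 16 of 16 cells on COR plate 1, 58 of 64 on COR plate 2 and 30 of 30 on SAG plate 1. These are 104 of the 325 cells that pass the same filter in the whole series of 360 cells. Both groups were wild type CD-1 mice at postnatal day 3, without treatment, and both were sorted for the surface proteins CD51 and CD200 and against CD45, Ter119, Tie2, Thy1, 6C3 and CD105. Each cell was a full-length library of the SMART-seq2 kind and the values were reads per gene. The study pooled the sutures of many mice and named no animal for any cell, so each suture was 1 sample and no test between sutures was possible.

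SAG plate 2 was left out because the ribosomal RNA gene Rn45s held 86.8% of its reads, against 20.2% on COR plate 1, 27% on COR plate 2 and 24.5% on SAG plate 1. Rn45s was left out of all totals. The other reads had a median of 177880 per cell on COR plate 1, 506992 on COR plate 2 and 188426 on SAG plate 1, so the medians of COR plate 1 and SAG plate 1 were close. Genes read per cell were not, with medians of 3867 on COR plate 1, 3307 on COR plate 2 and 2892 on SAG plate 1, and of 4008, 3100 and 2867 after cells were thinned to 100000 reads. The part of this in the genes with 0 reads on SAG plate 1 was not tested. The cells with the fewest genes that passed held 537 on COR plate 2 and 871 on SAG plate 1, and the 6 cells removed, all of COR plate 2, held at most 2599 reads and 980 genes. No pair of the 104 cells had identical counts. Every suture had plates of its own, so suture and plate cannot be told apart, and the 2 COR plates gave the only spread within a suture. For 1 of the SAG plate 1 cells the title and source named SAG while its description named a PF plate. It was kept, and leaving it out is among the alternatives given at the end.

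Skull bones form by 2 routes. Most of the vault is laid down directly by osteoblasts, cells that secrete type I collagen and mineralise it, while cartilage is built by chondrocytes, which secrete type II, IX and XI collagen under the control of Sox9. The suture itself holds fibroblast-like mesenchyme, and cells that carry smooth muscle actin and other contractile proteins are known from perivascular and myofibroblast states. CD51 and CD200 mark a population that can give rise to bone and cartilage. Whether reads of either lineage in these cells relate to that capacity was not tested.

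The reads of all cells on a plate were added up and given as CPM, the reads of a gene per 1000000 reads other than Rn45s. A gene was called where both COR plates differed from SAG plate 1 in the same direction by 2-fold or more, on the scale of log2((CPM + 1)/(CPM + 1)), which understates the difference of weakly expressed genes. Of 9515 genes with at least 10 CPM in COR or in SAG plate 1, 1076 were called higher in COR, which is 11.3%, and 1175 higher in SAG plate 1, which is 12.3%. The COR plates themselves were 2-fold or more apart for 3065 genes (32.2%). Calls that also exceeded the difference between the COR plates numbered 995 (10.5%) for COR and 919 (9.66%) for SAG plate 1. Calls named below that did not exceed that difference include Matn4, Mepe, Dlx3, Sfrp4, Axin2, Lef1, Bmp2, Bmp5, Etv5, Zic4, Ltbp2 and S100b. Without a size limit, both COR plates lay above SAG plate 1 for 32.8% of genes and below it for 41.7%, and the remaining 2326 genes with a sign on each plate differed in opposite directions. The median log2 ratio of COR to SAG plate 1 over all tested genes was -0.02, with -0.22 for COR plate 1 and -0.0098 for COR plate 2.

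**Figure D1:**
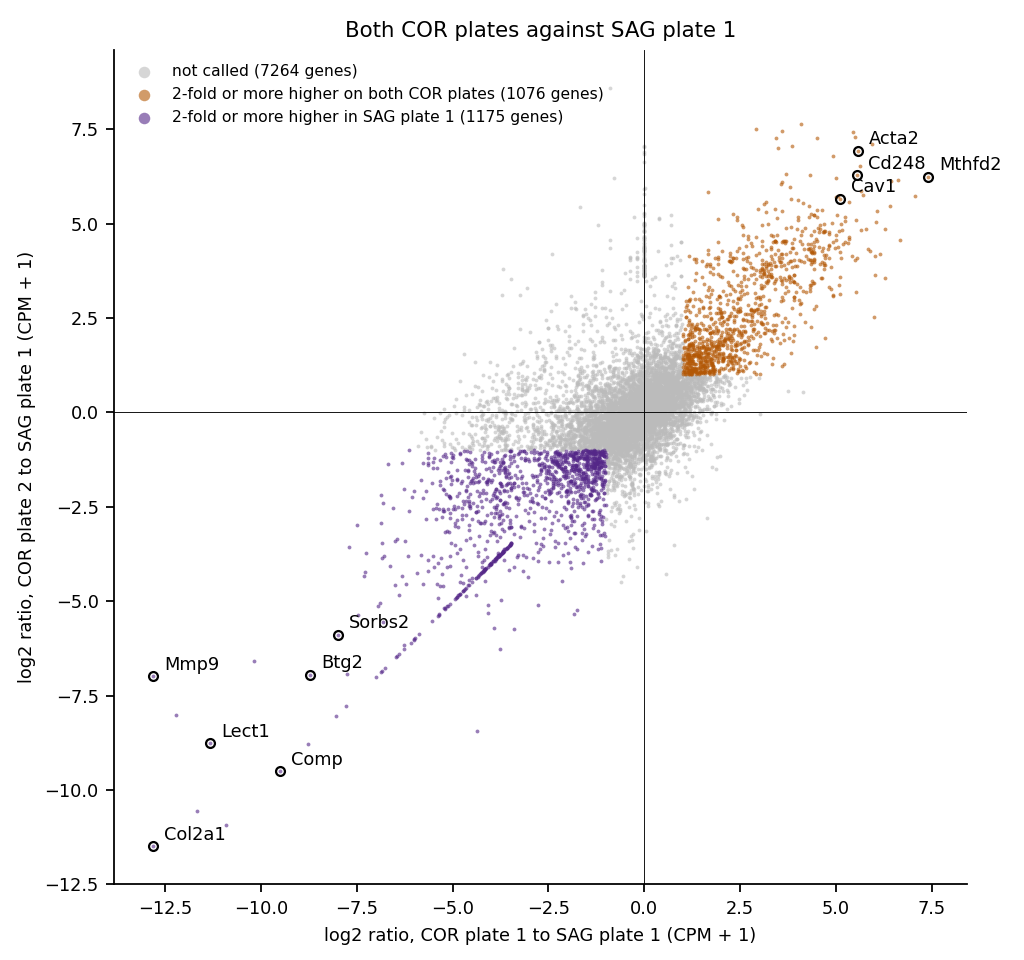
Each point is 1 of 9515 genes, with the log2 ratio of COR plate 1 to SAG plate 1 on the horizontal axis and that of COR plate 2 on the vertical axis. The 1076 genes called higher in COR lie at the upper right and the 1175 called higher in SAG plate 1 at the lower left. Circles mark 10 of the genes described in the text, with Col2a1 the lowest point.

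Chondrocyte and immediate early genes were called on the SAG side. Of 20 chondrocyte genes tested, 16 were called higher in SAG plate 1 and 0 higher in COR. Of 15 immediate early genes, 12 were called higher in SAG plate 1 and 0 in COR. The backgrounds of 12.3% and 11.3% are the shares of all tested genes in each direction. A tested gene under 10 CPM in COR passed the limit through SAG plate 1 alone and could not have been called higher in COR. The reverse holds for a gene under 10 CPM in SAG plate 1. Among the chondrocyte genes, Col2a1, Matn1, Matn3, Comp, Lect1, Ucma and Cytl1 were under 10 CPM in COR. Part of a list's split by direction was thus set by the limit, as it was in the backgrounds. On the COR side, 11 of 16 genes of the dividing cell, 7 of 18 osteoblast genes, 5 of 13 contractile genes and 5 of 16 collagens were called. The genes named below are Cav1, Acta2, Col2a1 and Sorbs2, then the 12 genes per direction with the largest value of the smaller plate ratio among genes read in at least 25% of cells and not resting on 1 cell, and members of gene lists.

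Col2a1 encodes the chain of type II collagen, the main fibre of cartilage, and lies in mm9 at chr15:97806033-97835155 on the minus strand. Its level was 0.31 CPM on COR plate 1, 2.26 CPM on COR plate 2 and 9413 CPM on SAG plate 1, with a 95% exact Poisson interval for SAG plate 1 of 9341 to 9486 CPM. Intervals here describe counting error alone, as PCR copies of a molecule count as several reads and no animal was named. A single cell held 48.3% of the SAG plate 1 reads, and the level without that cell was 5216 CPM. A Col2a1 read was present in 1 of 16, 2 of 58 and 22 of 30 cells. On COR plate 1 the gene rested on 1 read, so its ratio of SAG to COR, 30480, has a counting interval from 5470 to 1203910. After each cell was thinned to 100000 reads, Col2a1 was read in 1 of 14, 1 of 57 and 18 of 25 cells.

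Of the other 19 cartilage genes, Comp, Matn1, Matn3, Ucma and Cytl1 had no read in COR, while 13 of the list were at 10 CPM or more in COR, with Col11a1 at 668, 473 and 1199 CPM and Matn4, a matrilin, at 11.4, 202 and 1165 CPM. Comp, a cartilage oligomeric matrix protein, had 0 reads in the 74 COR cells and 726 CPM in SAG plate 1, where 12 of 30 cells carried it. Against a floor of 3 counts per plate it was at least 784-fold higher than on COR plate 1 and at least 6970-fold higher than on COR plate 2. Matn1 and Matn3, matrix proteins of cartilage, were also at 0 on both COR plates, with 1934 and 436 CPM in SAG plate 1, although 1 cell held 54.9% of the Matn1 reads and 55% of the Matn3 reads, and the levels without the top cell were 934 and 207 CPM. Lect1, which encodes the growth inhibitor chondromodulin, was read in 0, 4 and 21 cells of the 3 plates, with 0, 4.86 and 2554 CPM.

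All 3 chains of type IX collagen, which decorates the type II fibre, were called higher in SAG plate 1. Col9a3 was at 0, 17.2 and 4730 CPM and was read in 26 of 30 SAG plate 1 cells, with 2767 CPM there without the cell that held 45.4% of its reads. Col9a1 was at 9.27, 17.2 and 2220 CPM. Col9a2 was at 0, 11.1 and 1160 CPM. Further genes named by the rule were Susd5 (263 CPM in SAG plate 1), Ncmap, a protein of non-compact myelin (127 CPM), the cartilage lectin Clec3a (113 CPM) and Mfi2, an iron binding protein (88.3 CPM), and all 4 had 0 reads in COR. Their SAG plate 1 reads came from 14, 15, 9 and 8 cells.

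The 4 chondrocyte genes without a call were Acan, the core protein of aggrecan, at 34.6, 120 and 232 CPM, Col11a1, Sox6 and Epyc. Sox9, the master regulator of cartilage, was called, with 21.6, 12.3 and 124 CPM, and was read in 3 of 14, 16 of 57 and 13 of 25 thinned cells. The summed list stood at 968, 1135 and 27242 CPM and its log2 ratio to SAG plate 1 was -4.81 for COR plate 1 and -4.58 for COR plate 2. A thinned cell carried a median of 2.5 of the 20 genes on COR plate 1, 3 on COR plate 2 and 10 on SAG plate 1. At least 5 of them were read in 0 of 14, 11 of 57 and 19 of 25 cells. The list sum of a SAG plate 1 cell ran from 335 to 158538 CPM, and the richest cell gave 38.8% of the list's reads.

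Mmp9 encodes a gelatinase made by osteoclasts and by cells that remodel matrix, and lies in mm9 at chr2:164766280-164781350. It was at 0 CPM on COR plate 1, 55.7 CPM on COR plate 2 and 7222 CPM on SAG plate 1, read in 0, 6 and 21 cells, with 51.9% of its SAG plate 1 reads in 1 cell and 3616 CPM without that cell. Other osteoclast genes were not called. The protease Ctsk was at 427, 481 and 515 CPM and Acp5 at 26.6, 38.4 and 21.8 CPM, and Ocstamp, Dcstamp and Calcr were at 0 on all 3 plates. Mmp13, a collagenase of hypertrophic cartilage and osteoblasts, was at 1618, 1575 and 5670 CPM and was called higher in SAG plate 1.

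**Figure D2:**
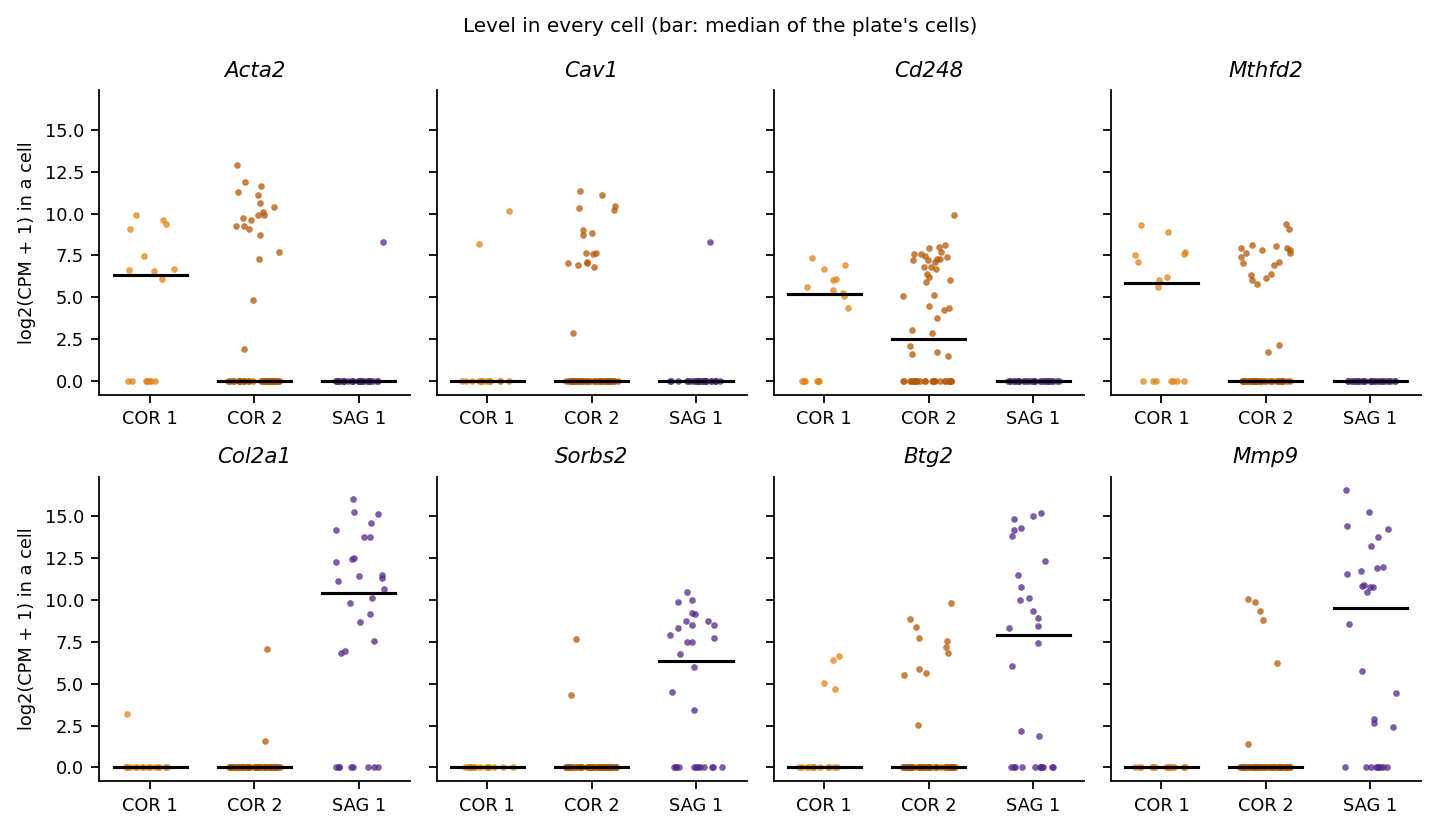
Each point is 1 cell, with log2(CPM + 1) on the vertical axis and the plate on the horizontal axis, and the bar is the median of the plate's cells. Acta2, Cav1, Cd248 and Mthfd2 were read in COR cells and in at most 1 SAG plate 1 cell. Col2a1, Sorbs2, Btg2 and Mmp9 were read in 18 to 22 of the 30 SAG plate 1 cells.

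Immediate early genes are switched on within minutes of a stimulus, and dissociation of a tissue is one such stimulus. Fos, a transcription factor subunit, was at 115 CPM on COR plate 1, 367 on COR plate 2 and 7064 on SAG plate 1. Its share of thinned cells with a read differed much less, 4 of 14, 10 of 57 and 9 of 25. Btg2, an inhibitor of proliferation, was at 12.4, 44.5 and 5657 CPM. Jun was at 19.8, 107 and 1501 CPM, Ier2 at 117, 48.7 and 1558 CPM and Egr1 at 42.9, 61.9 and 884 CPM. Jund, Klf2 and Klf4 were the 3 of 15 without a call, and Klf4 was at 43.9, 20.9 and 40.2 CPM. The summed list had log2 ratios of -5.22 and -4.39 for the COR plates. Btg2 was read in 4, 11 and 19 cells of the 3 plates.

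Heat shock genes are a second set known to respond to handling. Of 11 tested, Dnajb1 and Hspb1 were called higher in SAG plate 1 and 0 higher in COR. Dnajb1, a partner of the chaperone HSP70, was at 52.8, 94.5 and 742 CPM. Hspa8 was at 880, 1493 and 2807 CPM and Hsp90ab1 at 1049, 1040 and 988 CPM. Hspa1a and Hspa1b share near-identical sequence and their counts are uncertain.

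Most cartilage and early response reads sat in the same SAG plate 1 cells. The 22 cells with a Col2a1 read held 69.3% of the reads of that plate. They held 97.4% of the reads of the other chondrocyte genes, 99% of the early response reads and 16.5% of the osteoblast reads. Not every member followed these sums. Of the chondrocyte list, these cells held 67.3% of the Sox9 reads and 65.7% of the Sox6 reads. Of the early response list, these cells held 77.6% of the Dusp1 reads and 40.2% of the Klf4 reads. All 48558 Fos reads and all 38885 Btg2 reads lay in them. The early response reads were uneven among the cells with a Col2a1 read. Their list sum was 29375 CPM, while single cells ran from 126 to 131763 CPM with a median of 5512 CPM. The richest of these cells held 27.9% of the list's reads in them, so the sums do not describe each such cell. Osteoblast genes differed among themselves. Of the reads of Ibsp and Alpl, a matrix protein and a phosphatase of the osteoblast, the cells with a Col2a1 read held 0.00602% and 0.116%. They held 64.9% of the Runx2 reads, 57.6% of the Dlx5 reads and 43.1% of the Omd reads. The Ibsp reads outside them lay in 4 cells, with 66.2% in 1 of these. In thinned SAG plate 1 cells, Col2a1 and Ibsp were read together in 0 cells, Col2a1 without Ibsp in 18 and Ibsp without Col2a1 in 3. Col2a1 and Fos were read together in 9 and Fos without Col2a1 in 0. These counts describe cells of 1 plate, which are not replicates.

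**Figure D3:**
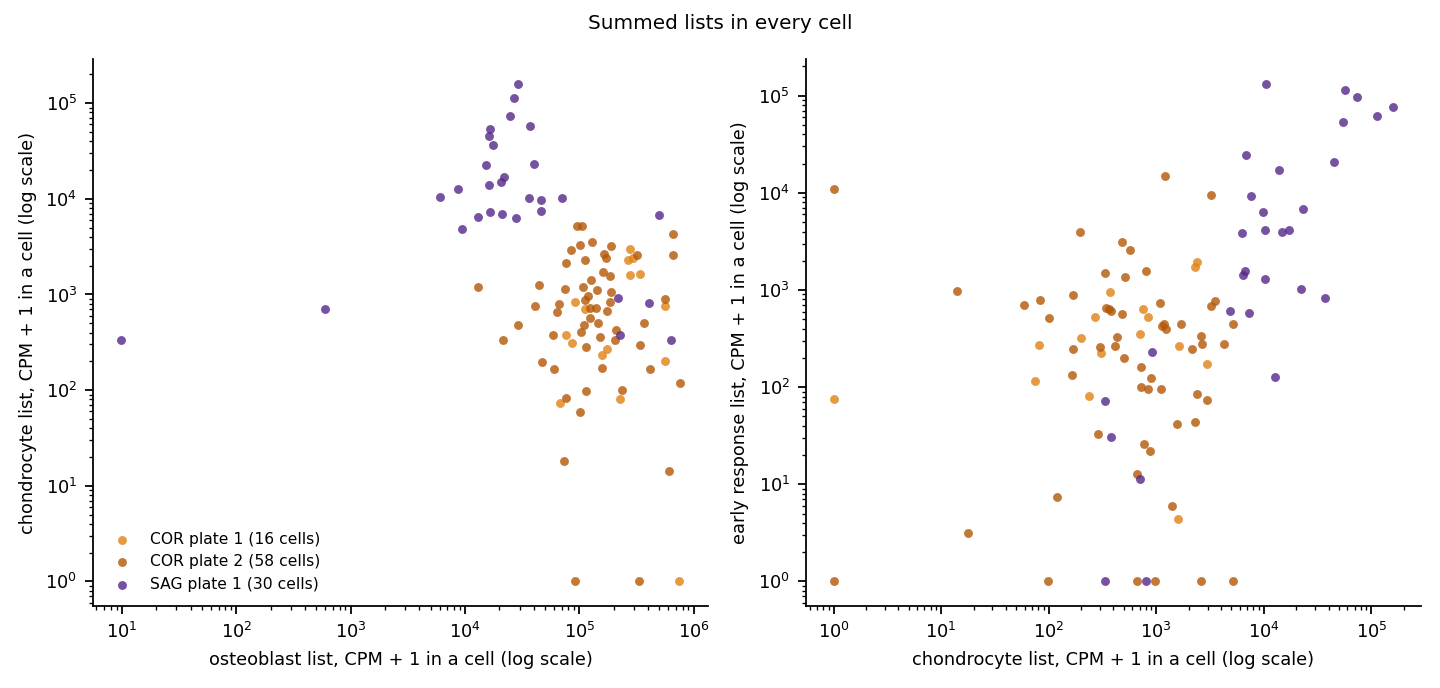
Each point is 1 cell, coloured by plate, and both axes of both panels are log scales of summed CPM + 1. The left panel sets the chondrocyte list against the osteoblast list and shows most SAG plate 1 cells above the COR cells and to their left. The right panel sets the early response list against the chondrocyte list, with the highest early response sums in SAG plate 1 cells of high chondrocyte sums.

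Osteoblast genes lay on the other side. Of 18 tested, 7 were called higher in COR and 0 higher in SAG plate 1, and the summed log2 ratios were 1.22 and 0.78. Alpl was at 1796, 994 and 252 CPM and was read in 12 of 14, 44 of 57 and 4 of 25 thinned cells. Col1a1, the main chain of bone collagen, was at 72989, 62253 and 29167 CPM, and Col1a2, at 48269, 42322 and 21843 CPM, fell short of the call on COR plate 2. Omd, Phex, Dlx3 and Mepe were also called, and Mepe rested on 1 cell of each COR plate.

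The late matrix genes differed between the COR plates. Ibsp was at 9086, 1068 and 2418 CPM. Bglap was at 37.4, 1389 and 188 CPM, and it may share reads with its near-identical neighbour Bglap2. Spp1, osteopontin, was at 82132, 47327 and 29201 CPM, with 94% of its SAG plate 1 reads in 1 cell and 1927 CPM without it. That plate's highest cell gave 47.3% of the reads of the whole osteoblast list. The median cell held 246934 CPM of the list on COR plate 1, 125012 on COR plate 2 and 23209 on SAG plate 1. Panx3, a channel of prehypertrophic cartilage and osteoblasts, was at 784, 241 and 66.3 CPM, and 98.5% of its SAG plate 1 reads came from 1 cell.

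Acta2, smooth muscle actin, and Cav1, the main coat protein of caveolae, the small pits of the cell membrane, were called higher in COR. Acta2 lies in mm9 at chr19:34315580-34329826 and Cav1 at chr6:17256335-17291452. Acta2 was at 177 CPM on COR plate 1, 461 on COR plate 2 and 2.76 on SAG plate 1, and was read in 9 of 16, 20 of 58 and 1 of 30 cells. Its ratio to SAG plate 1 was 64.1 for COR plate 1, with a counting interval of 40.7 to 107, and 167 for COR plate 2, with an interval of 107 to 277. Cav1 was at 128, 190 and 2.76 CPM and was read in 2 of 16, 17 of 58 and 1 of 30 cells. On COR plate 1 a single cell held 74.9% of its reads, and the level without it was 35.1 CPM. The lone SAG plate 1 cell with Acta2 was also the lone cell with Cav1, with 19 reads of each. That cell had 60585 reads other than Rn45s, so it was among the 5 SAG plate 1 cells left out by thinning, and the thinned cells give no share for either gene that includes it.

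Within COR the 2 genes overlapped only in part. Of 71 thinned COR cells, 11 carried both, 16 carried Acta2 alone and 7 Cav1 alone. Acta2 was read together with Myl9, the light chain of smooth muscle myosin, in 18 cells. The 29 COR cells with an Acta2 read held 4455 CPM of the other contractile genes and the 45 without one held 1717 CPM.

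Of 13 contractile genes tested, 5 were called higher in COR and 1 higher in SAG plate 1. Besides Acta2, Myl9 was at 148, 225 and 7.71 CPM and Csrp1, a muscle LIM protein, at 202, 267 and 39.3 CPM. Tpm2, a tropomyosin, was at 190, 131 and 46 CPM and Smtn, smoothelin, at 178, 157 and 45.4 CPM. The other way went Sorbs2, an adaptor of actin and focal adhesions that lies in mm9 at chr8:46593148-46913259, with 0, 3.26 and 253 CPM and reads in 0 of 16, 2 of 58 and 18 of 30 cells. Against the floor its fold over COR plate 1 was 273. The abundant members were not called, with Tpm1 at 718, 789 and 524 CPM, Cnn2 at 810, 669 and 547 CPM and Flna at 357, 348 and 350 CPM. The summed list had log2 ratios of 0.55 and 0.72, and -0.43 when both SAG plates stood for SAG. Tagln, of the same list, was tested and not called, at 4.94, 20.4 and 6.4 CPM. It lay below SAG plate 1 on COR plate 1 and above it on COR plate 2. Cnn1, at 0, 0 and 6.69 CPM, was not tested. Myh11, Actg2 and Des, which mark mature muscle, were also not among the genes tested. Myh11 and Des had no read on any of these plates, and Actg2 was at 0, 8.13 and 0 CPM.

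The caveola list was mixed. Of 7 genes tested, Cav1 was called higher in COR and Sdpr, which encodes a cavin, higher in SAG plate 1, at 0, 4.93 and 98.8 CPM. Ptrf, the cavin that coats every caveola, was at 635, 611 and 403 CPM and Prkcdbp at 185, 340 and 243 CPM. Its summed ratios were 0.27 and 0.63. Among 17 focal adhesion genes, Tns1 was called higher in COR and Tns3 in SAG plate 1, while the integrin Itgb1 was at 1073, 1010 and 1167 CPM.

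Targets of the serum response factor and of YAP, the transcription co-activator that senses tension, went both ways. Ctgf and Cyr61, the classical targets, were at 21.3, 70.1 and 1658 CPM and at 142, 453 and 2113 CPM and were called higher in SAG plate 1. Of 12 tested, 5 were called higher there, with Axl, Amotl2 and Srf as the others. Yap1 itself was at 46, 31.9 and 14 CPM and Mkl1, a cofactor of the serum response factor, at 34.3, 34.7 and 3.78 CPM, both called higher in COR. Ctgf and Cyr61 also respond early to a stimulus.

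Promoter letters are shown for the contractile and early response genes, groups that the serum response factor is known to bind. Acta2 is shown as the COR marker, with the 3 genes of these lists that held the CArG box, the binding motif of that factor. The box was searched only as CC, a fixed run of A or T, then GG. A box with another base inside was not counted. The sequences are RefSeq reference sequence of build GRCm38.p6, with the motif in capitals on the strand of the gene.
Acta2, chr19:34255502-34255531, minus strand: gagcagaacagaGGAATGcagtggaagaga
Myl9, chr2:156775293-156775322, plus strand: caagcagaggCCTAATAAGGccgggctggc
Cnn2, chr10:79988534-79988563, plus strand: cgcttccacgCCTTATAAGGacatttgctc
Zfp36, chr7:28379267-28379296, minus strand: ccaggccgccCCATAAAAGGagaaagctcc
The capitals mark GGAATG, which TEAD factors read, in Acta2 and the CArG box in the rest. In the 250 bases before a start, the CArG box was present for 439 of 27025 genes (1.62%) and GGAATG on either strand for 3880 (14.4%). Of the 11 tested contractile genes with a promoter in the table, 2 held a CArG box and 5 held GGAATG. Of 13 early response genes the counts were 1 and 1. AACAAT, a SOX motif, was in 10.9% of all promoters and in 2 of 16 chondrocyte genes, and TGTGGT, a RUNX motif, in 15.9% of all and 4 of 16. GGAATG was in 6 of these 16 chondrocyte genes. Of the named genes, 11 of 13 higher in COR and 8 of 13 higher in SAG plate 1 had a promoter in the table. The former held GGAATG in 4 and no other motif, and the latter held AACAAT in 1 and no other. A match is a string of letters and was not tested as a site.

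Of 16 fibroblast and suture mesenchyme genes, 5 were called higher in COR and 1, the Wnt response gene Axin2, higher in SAG plate 1. Col3a1, the fibre of loose connective tissue, was at 13625, 17510 and 3247 CPM, and Postn, periostin, at 4185, 6331 and 1379 CPM. Dpt, Ly6a and Cd34, which mark fibroblast progenitors, had 0 reads in SAG plate 1 and were read in 2, 2 and 2 cells of COR plate 1 and in 15, 6 and 14 cells of COR plate 2. None of these genes could have been called higher in SAG plate 1. Against the floor the folds of Dpt on the COR plates were 73.6 and 119. Of 16 collagens, Col1a1, Col3a1, Col5a2, Col5a3 and Col6a1 were called higher in COR and 0 in SAG plate 1, and the summed log2 ratios were 1.25 and 1.13. Within SAG plate 1 the collagen list summed to 20663 CPM in the 22 cells with a Col2a1 read and to 152157 CPM in the 8 without, against 144921 and 133798 CPM on the COR plates. Several members were not called. Col12a1, at 1631, 2626 and 1840 CPM, and Col16a1, at 385, 658 and 869 CPM, were among them, as were Ogn, the proteoglycan osteoglycin, at 434, 709 and 1034 CPM and the receptor Pdgfra at 174, 105 and 151 CPM of the fibroblast list.

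Cd248, or endosialin, a surface protein of fibroblasts and pericytes, was read in 10 of 16 and 33 of 58 COR cells and in 0 of 30 SAG plate 1 cells, with 46, 76.8 and 0 CPM. Against the floor its folds on the COR plates were 105 and 176. It reached 456 CPM on SAG plate 2, where 8 of 56 cells carried it, and its log2 ratio turned to -1.88 when both SAG plates stood for SAG. Mme, a membrane peptidase, was at 72, 114 and 2.18 CPM. Of 4 pericyte genes tested, Ndufa4l2 was called higher in COR and Pdgfrb, a growth factor receptor, was at 126, 122 and 193 CPM.

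The other named genes of COR did not belong to one pathway. Mthfd2, an enzyme of mitochondrial folate metabolism, was at 169, 74.5 and 0 CPM and was read in 9, 21 and 0 cells. Its levels on the COR plates were 387-fold and 171-fold the floor. Vars, the valyl-tRNA synthetase, was at 59.9, 56.6 and 1.16 CPM. Thap11, a transcription factor of embryonic stem cells, was at 49.7, 57.1 and 0 CPM. Ankrd40 was at 19.5, 37.5 and 0 CPM. Farp2, a guanine nucleotide exchange factor, rested on 1 read in SAG plate 1, with a ratio of 401 for COR plate 1 and an interval of 71.1 to 15930. Zw10 of the spindle checkpoint, Mcur1 of the mitochondrion, the phospholipase Plcb3 and Tdrd3, which binds methylated arginine, were at 63.9, 42.6, 43.6 and 81.8 CPM on COR plate 1, at 35.7, 35.2, 46.7 and 27.8 CPM on COR plate 2 and at 0.29, 0.29, 1.16 and 0.44 CPM on SAG plate 1.

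Of 13 BMP ligands, antagonists and targets, 6 were called higher in SAG plate 1 and 0 in COR. Gdf5, a BMP of joints and early cartilage, was at 0, 3.30 and 176 CPM, read in 0, 1 and 7 cells. Bmp2 was at 22.2, 3.37 and 69 CPM, Chrdl1, a BMP antagonist, at 5.56, 16.3 and 93.8 CPM and Smad6, an inhibitor induced by BMP, at 5.25, 8.72 and 43.1 CPM. Gdf10 and Bmp5 were the others. The targets Id2, at 241, 283 and 338 CPM, and Id3, at 183, 359 and 485 CPM, were not called.

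Canonical Wnt signalling was a subject of the study. The 3 Wnt ligands tested were called higher in COR, in few cells (5, 4 and 1 on COR plate 1). Wnt5a was at 23.5, 12.9 and 5.38 CPM, Wnt5b at 29, 31.6 and 0 CPM and Wnt9a at 5.25, 20.2 and 0 CPM. All 3 passed the limit of 10 CPM through COR alone, so none could have been called higher in SAG plate 1. Untested ligands did not all go that way, with Wnt2b at 0, 0.38 and 3.20 CPM. The sum over all 19 ligands of the list had a log2 ratio of 2.26, and of -0.061 when both SAG plates stood for SAG. Of 5 response genes, Axin2, at 0.62, 6.60 and 14.4 CPM, and Lef1, at 9.57, 3.92 and 20.8 CPM, were called higher in SAG plate 1. Both were under 10 CPM in COR, so neither could have been called higher in COR. Neither call exceeded the difference between the COR plates. Tcf7, Nkd1 and Znrf3 were not called, with Tcf7 at 205, 43.2 and 36.1 CPM. The summed response list had log2 ratios of 0.87 for COR plate 1 and -0.44 for COR plate 2. Of 7 secreted inhibitors Sfrp4 was called higher in COR, at 1811, 271 and 80.2 CPM. The TGF-beta list had, of 12 tested, Ltbp1 higher in COR and 3 genes higher in SAG plate 1, Tgfb2 and Ltbp2 among them, with Tgfb2 at 28.4, 56.4 and 218 CPM. Of 7 genes of the FGF pathway Etv5 and Spry2, both induced by FGF, were called higher in SAG plate 1.

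Genes of the dividing cell were higher in COR in a minority of cells. Of 16 tested, 11 were called higher in COR and 0 in SAG plate 1. Mki67, the proliferation antigen, was at 84.9, 69.2 and 0 CPM and was read in 3, 9 and 0 cells. Ccna2 and Ccnb1, cyclins of S phase and mitosis, were also at 0 in SAG plate 1. Mki67, Ccna2 and Ccnb1 could therefore not have been called higher in SAG plate 1. The summed list reached 1000 CPM in 4 of 16, 12 of 58 and 0 of 30 cells. On COR plate 1 a single cell gave 63.1% of the list's reads. The median cell went the other way, with 159, 158 and 272 CPM.

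**Figure D4:**
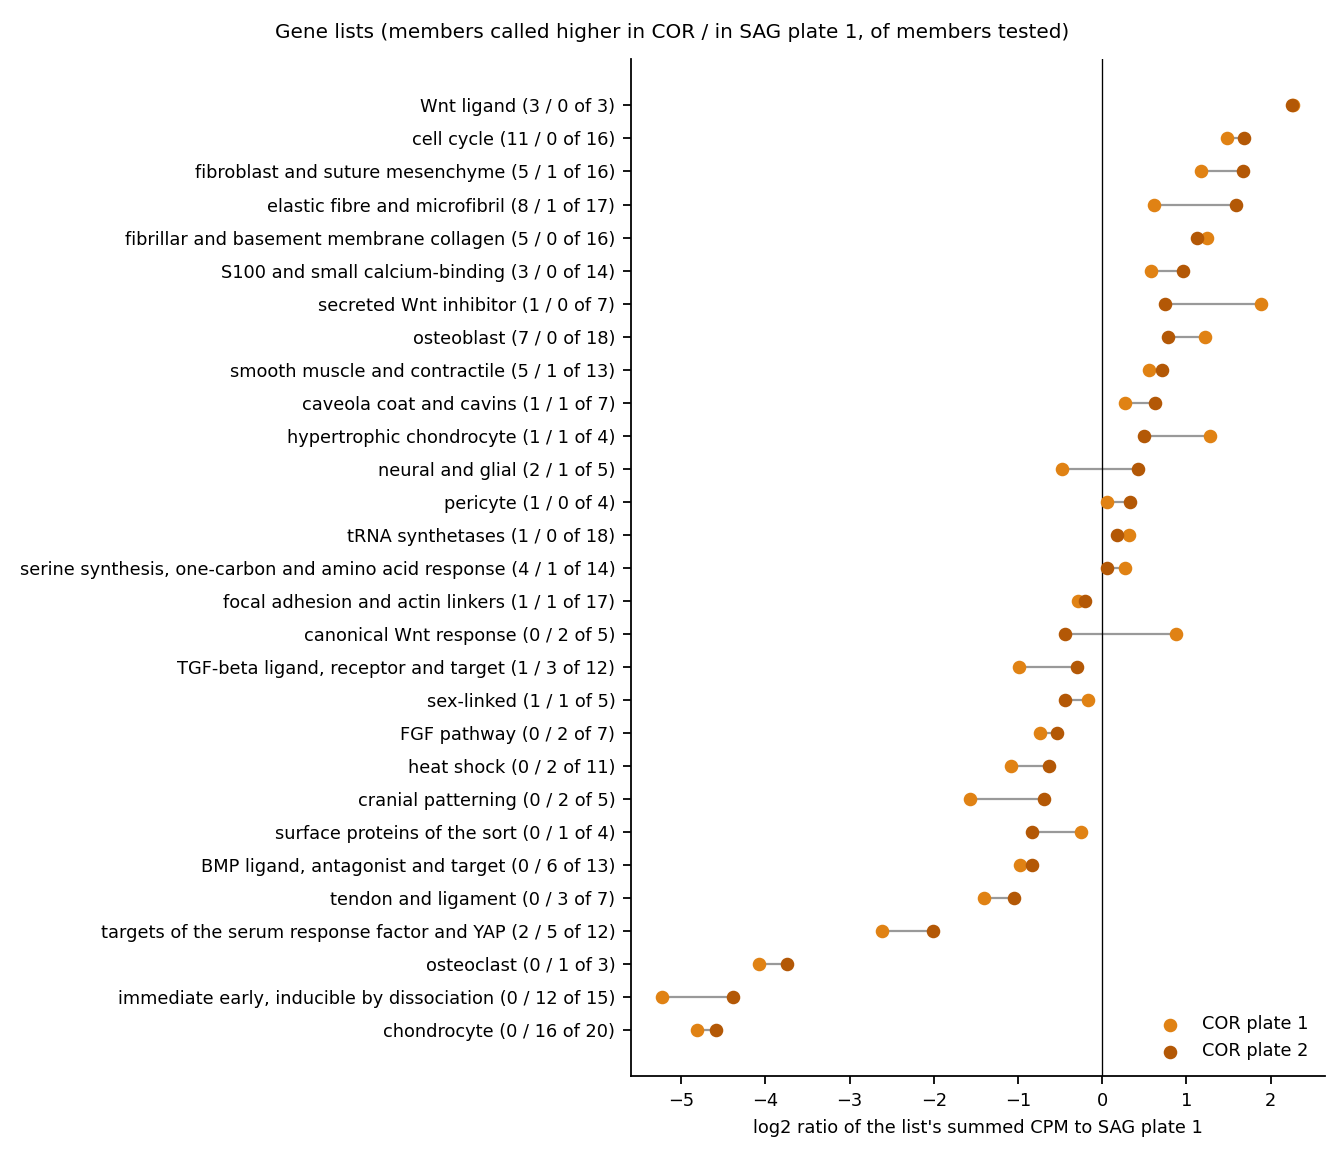
Each row is a gene list, and the 2 points give the log2 ratio of its summed CPM to SAG plate 1 for COR plate 1 and COR plate 2. Numbers after a name are the members called higher in COR, higher in SAG plate 1 and tested. The chondrocyte and immediate early lists lie lowest, at -4.81 and -4.58 and at -5.22 and -4.39.

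Markers of cell types outside the sort were near 0 on all 3 plates. Endothelial genes summed to at most 7.67 CPM, haematopoietic to at most 6.11 CPM, skeletal muscle to at most 5.17 CPM and erythroid to at most 1.84 CPM, and all 16 hindlimb patterning genes were at 0. Of 5 neural genes tested, 2 were called higher in COR, Gap43 among them, and S100b higher in SAG plate 1. Tendon genes had 3 of 7 called higher in SAG plate 1, with Fmod, fibromodulin, at 1197, 1279 and 4510 CPM, and the other 2, Egr1 and Egr2, are also early response genes. Scx and Tnmd, which define tendon, were at 25.3, 9.51 and 7.42 CPM and at 76.3, 84.1 and 77.7 CPM. Of the cranial patterning genes, Msx2 and Zic4 were called higher in SAG plate 1 of 5 tested.

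The genes of CD51 and CD200, the proteins sorted for, were read on every plate. Itgav, which encodes CD51, was at 122, 86.8 and 96.6 CPM, and Cd200 was at 239, 129 and 287 CPM. Enpep, which encodes the excluded 6C3, was at 0, 15.7 and 39.4 CPM and was called higher in SAG plate 1. Cells of both sexes were on each plate. Of thinned cells, 4 of 14, 18 of 57 and 5 of 25 carried Xist and no Y gene, and 10, 20 and 13 carried a Y gene and no Xist. Of 5 sex-linked genes tested, Xist was called higher in COR and Kdm5d, a Y gene, higher in SAG plate 1. No thinned cell carried Xist and a Y gene, which would have marked a well with cells of 2 animals of different sex.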

How the data were processed

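Raw read counts per gene and cell were deposited by the authors in 8 tables of 24015 gene symbols. The build was mm9. The submitters' processing notes name STAR 2.5.3a and HTSeq without roles; annotation and use of strand are not given in the sources used here. Labels and paper name different instruments. The protocol has no molecular identifiers. No column was left without a cell.

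Counts were summed per plate in Python 3.11.15 (pandas 2.3.3, numpy 2.4.6, scipy 1.17.1). Groups came from titles and source names. Thinning drew 100000 reads other than Rn45s per cell with 1 seed and left out 2, 1 and 5 cells of COR plate 1, COR plate 2 and SAG plate 1. Intervals are exact Poisson or Clopper-Pearson at 95%. No doublet caller was run, as cells were sorted singly. TMM factors (edgeR 4.0.16) and size factors (DESeq2 1.42.0) were alternatives. The calls were checked on simulated counts with counting error alone. That check cannot speak to spread between cells or between plates. Genes were named as stated in the report and, from each list, as the 3 members with the highest mean CPM; other members were chosen after their values were seen. All members and lists were chosen with earlier results of these data known. Some members of the lists are counted but not reported here.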

Additional observations from a re-analysis of the deposited data

How the results depend on the processing

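Counts of genes called higher in COR and in SAG plate 1 moved by over 1.5 times from 1076 and 1175 under several choices. Both SAG plates summed gave 2085 and 2323, COR plate 1 alone 1659 and 2495, a pseudocount of 10 CPM 576 and 758, a minimum of 50 CPM 310 and 473, and a 3-fold limit 671 and 636. COR plate 2 alone gave 1891 genes higher in COR. The log2 ratio of the contractile list, 0.70, was -0.43 with both SAG plates and 0.55 with COR plate 1 alone. The caveola list, 0.60, was 1.75 and 0.27 in the same order. The chondrocyte list, -4.61, was -4.35 with thinned cells, -4.81 with COR plate 1 alone and -4.11 without the top cell of each plate. The osteoblast list, 0.83, was 1.23 as a mean of cells, 1.32 with thinned cells, 1.44 with both SAG plates, 1.22 with COR plate 1 alone and 1.46 without the top cells. The fibroblast list, 1.63, was 1.17 with COR plate 1 alone and 2.05 without the top cells, and the early response list, -4.45, was -5.22 with COR plate 1 alone. With both SAG plates the Wnt ligand list reversed to -0.061 and Cd248 to -1.88. The causes were not tested. With both SAG plates, 24 of the 26 named genes kept both sign and 2-fold size, and Zw10 fell to a log2 ratio of 0.72. SAG plate 1 stayed in that sum, so named genes far higher there kept their call whatever SAG plate 2 held. Ncmap and Mfi2, at 0 CPM on SAG plate 2, are among the 24. The named genes were mostly chosen for large ratios on both COR plates, so their size under single COR plates is no sign of stability. No paired analysis was possible because plate numbers do not pair sutures and no test was made. No sample could be left out in turn, since each suture was 1 sample.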

Other observations

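Elastic fibre genes, in a list chosen after the values were seen, were called higher in COR for 8 of 17 tested and higher in SAG plate 1 for 1. Elastin, Eln, was at 159, 298 and 11.9 CPM on COR plate 1, COR plate 2 and SAG plate 1. Fbln1, a fibulin of the elastic fibre, was at 220, 385 and 29.4 CPM, and 96.5% of its SAG plate 1 reads came from 1 cell. Ltbp4, which binds latent TGF-beta to the fibre, was at 61.8, 102 and 5.96 CPM. Efemp1 was at 29.3, 110 and 0 CPM, with 97.9% of its COR plate 1 reads in 1 cell. Lox, the enzyme that crosslinks collagen and elastin, was at 1309, 981 and 394 CPM and was read in 16 of 16, 53 of 58 and 10 of 30 cells. Ltbp2 went the other way, at 49.4, 217 and 445 CPM.

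Of 14 tested genes of serine synthesis, one-carbon metabolism and the amino acid response, also listed after the values were seen, Mthfd2, Mthfd1l, Asns and Slc7a5 were called higher in COR and Sesn2 higher in SAG plate 1. Asns, asparagine synthetase, was at 73.8, 75.8 and 6.11 CPM. Phgdh, the first enzyme of serine synthesis, was at 84.9, 139 and 141 CPM and Atf4, which drives many of these genes, at 155, 121 and 151 CPM. Of 18 tRNA synthetases only Vars was called. Of 14 S100 and small calcium-binding genes, S100a4, S100a6 and Crip1 were called higher in COR, and S100a6 was at 188, 236 and 21.8 CPM.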
